A study of Mus musculus with 4 samples.

Results

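Wnt, Bmp and Fgf proteins and Sonic hedgehog (Shh) are secreted morphogens, and the 85 genes described here encode these ligands, a set of their receptors and secreted inhibitors, and a few genes that respond to them. They were chosen by symbol alone from the 48795 genes of the deposited table: genes named Wnt, Fzd, Sfrp, Dkk, Bmp, Bmpr or Fgf with a family number (for Bmp a number without a letter, which leaves out Bmp8a and Bmp8b), and Fgfr1, Fgfr2, Axin2, Lef1, Nog, Chrd, Shh, Ptch1, Smo, Gli1, Gli2 and Rspo1 to Rspo3. No measured value entered the choice. By pathway they comprised 42 Wnt, 14 Bmp, 24 Fgf and 5 Shh genes, and 51 of the 85 are named Wnt, Bmp, Fgf or Shh. These 51 include Bmp1, a protease, and Fgf11 to Fgf14, which are not secreted.

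RNA was sequenced from the telencephalon, the embryonic forebrain, of C57BL/6 mice at embryonic day 14. The 2 control libraries came from animals with a loxP-flanked (floxed) Ctcf gene and no Cre, and the 2 Ctcf-null libraries from animals with the same floxed Ctcf gene plus NestinCre. Nestin sequences drive the Cre recombinase in neural progenitors, so blood, vessel, meningeal and microglial cells in the tissue are not expected targets of the deletion. CTCF, a DNA-binding factor with zinc fingers, works with cohesin to hold the bases of chromatin loops. The libraries are numbered as 2 pairs, each of 1 control and 1 Ctcf-null library. The labels state neither what a pair has in common nor whether each library is a separate embryo, so p-values cover only the spread among these samples, which may be technical.

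Each of these signals is read by its own receptors. Wnt ligands bind Frizzled receptors, and in the canonical branch this stabilizes β-catenin, which acts with TCF/LEF factors. R-spondins strengthen that response, while Sfrp proteins and some Dkk proteins dampen it. Bmp ligands bind pairs of type I and type II receptors that phosphorylate Smad proteins, and Noggin and Chordin hold Bmps away from the receptors. Fgf ligands act through receptor tyrosine kinases, except for Fgf11 to Fgf14, which stay inside the cell and bind sodium channels. In the early forebrain, Wnts and Bmps come from the dorsal midline (the cortical hem), Fgfs from the rostral end and Shh from the ventral side, and together they pattern the telencephalon.

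Recovered reads numbered 25519331 to 43812558 per library. Values below are the authors' normalized read counts per library, where 1 read was worth 0.707 to 1.25, always given in the order control 1, control 2, Ctcf-null 1, Ctcf-null 2. Ctcf, the targeted gene, stood at 436.72, 1133.21, 38.89 and 61.96 normalized counts. The telencephalic marker gene Lhx2 was present in all 4 libraries at 1203.50 to 3289.57, and Emx1, a marker of the cortex, at 96.87 to 2268.93. The pairs differed strongly from each other: across genes, the correlation of log2 counts was 0.987 and 0.984 within the pairs and 0.894 between the controls. Pair number was therefore a term of the test (edgeR's quasi-likelihood test, Benjamini-Hochberg adjustment over 22158 tested genes, threshold 0.05). A gene that passed is said to have risen or fallen, and log2 fold changes are Ctcf-null over control with their standard error (SE).

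Of the 85 genes, 68 had enough reads to be tested. In Ctcf-null telencephalon 8 of the 68 rose: Fgf3, Fgf4, Fgf5, Fgf15, Bmp7, Wnt5a, the receptor Fzd4 and the Wnt inhibitor Sfrp4. A further 12 fell: the ligands Wnt7a, Wnt7b and Bmp3, the protease gene Bmp1, the intracellular Fgf11, the receptors Fzd1, Fzd2, Fzd9 and Bmpr1b, the R-spondin Rspo3, the inhibitor Nog and the Wnt effector Lef1. Among all tested genes 4.8% rose and 7.13% fell, 11.9% in all. The median log2 fold change was 0.05 over the 68 and -0.02 over all tested genes. Sizes ran from a log2 fold change of -1.88 (Fzd9) to 2.55 (Fgf3), and 9 of the 20 genes changed at least 2-fold.

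**Figure D1:**
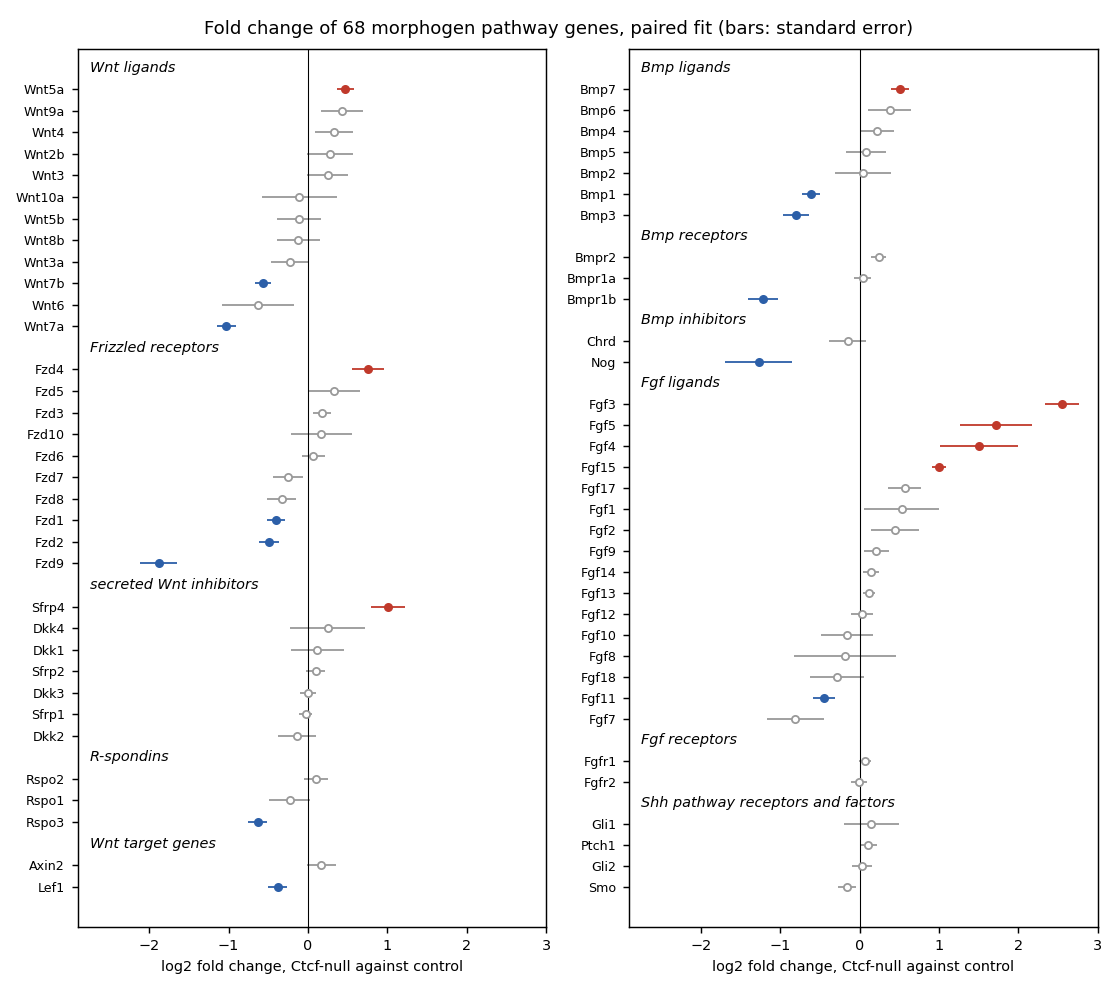
Log2 fold change, Ctcf-null over control, of the 68 tested morphogen genes by role, from the edgeR fit with pair as a term; bars are 1 SE on each side. Red points rose, blue points fell and grey points did not pass; the row of Fgf genes holds the largest increase (Fgf3, 2.55) and the Frizzled receptors the largest decrease (Fzd9, -1.88); Bmp1 and Fgf11 to Fgf14 are drawn under the family whose name they bear.

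These calls rest on the comparison within pairs. With the pair left out of the model, 0 of the 68 passed and 0 had an unadjusted p under 0.05, in edgeR and in limma alike (all genes: 0 passed, with 174 in edgeR and 170 in limma at an unadjusted p under 0.05). DESeq2 with the pair as a term called 3.75% of the tested genes and 8 of the 68 morphogen genes. Those 8 were Fgf3 and Fgf15, which rose, and Fzd9, Bmpr1b, Wnt7a, Wnt7b, Bmp1 and Rspo3, which fell. Among the genes that passed in edgeR, it gave no adjusted p for Nog, Fgf4 and Fgf5. Nor did it give one for Bmp2, Fgf1, Fgf7, Fgf8, Fgf10, Fgf18, Fzd10, Gli1, Wnt6, Wnt10a, Dkk1 and Dkk4, which did not pass in edgeR.

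Among Wnt ligands, 3 of 12 tested genes passed. Wnt7a, made by cortical progenitors and needed for growth of brain vessels, stood at 305.97, 599.13, 135.06 and 298.86 normalized counts. Both Ctcf-null libraries were below both controls, and the log2 fold change was -1.03 ± 0.12 (SE, edgeR adjusted p = 7.2e-07). Its close relative Wnt7b, which acts with Wnt7a on the vessels, stood at 272.17, 1981.24, 195.16 and 1200.31. Here the groups overlapped, because the second pair was far above the first, but each Ctcf-null library was below its own control (log2 fold change -0.57 ± 0.10, edgeR adjusted p = 2.0e-04). Per kilobase of exon Wnt7b was above Wnt7a in the second pair (404 and 245 against 189 and 94.2 normalized counts per kilobase) and below it in the first (55.6 and 39.8 against 96.5 and 42.6). Wnt5a, a ligand of the β-catenin-independent branch, went the other way, from 354.89 and 409.01 in the controls to 506.29 and 506.61 (log2 fold change 0.47 ± 0.11, edgeR adjusted p = 0.0046), with no overlap.

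The other 9 tested Wnt ligands did not pass. They include the hem ligands Wnt3a (36.47, 105.07, 27.58 and 91.12 normalized counts), Wnt2b (46.25, 21.26, 41.72 and 40.09) and Wnt8b (12.45, 90.06, 14.85 and 71.68), each with overlapping groups. Their log2 fold changes were -0.23, 0.28 and -0.12. Reads of Wnt5a cannot be told from those of the opposite-strand gene Gm2670, nor reads of Wnt7b from those of AU022754, since the labels name no strand. The 7 Wnt ligands not tested were Wnt1, Wnt2, Wnt8a, Wnt9b, Wnt10b, Wnt11 and Wnt16.

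Of the 10 Frizzled receptors, all tested, 3 fell and 1 rose. Fzd9, known from neural precursors, stood at 33.80, 290.18, 12.02 and 68.03 normalized counts. It was lower in both pairs, with differences of -1.42 and -2.08 on the log2(count + 1) scale, although Ctcf-null 2 remained above control 1 (log2 fold change -1.88 ± 0.23, edgeR adjusted p = 1.2e-06). Fzd1 stood at 387.80, 451.53, 270.11 and 346.24, without overlap (log2 fold change -0.40 ± 0.11, edgeR adjusted p = 0.02). Fzd2, per kilobase above Fzd1 in the second pair and below it in the first, stood at 285.51, 559.10, 173.95 and 427.64, with overlap (log2 fold change -0.49 ± 0.12, edgeR adjusted p = 0.0069). Fzd4 is the receptor of the vascular ligand Norrin as well as of Wnts. Its counts were 56.92, 81.30, 114.55 and 103.27, both Ctcf-null libraries above both controls (log2 fold change 0.76 ± 0.20, edgeR adjusted p = 0.013). The 6 others (Fzd3, Fzd5, Fzd6, Fzd7, Fzd8 and Fzd10) lay between -0.33 and 0.33 and did not pass.

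Stretches near RefSeq transcript starts of Fzd9 and of the Bmp receptor gene Bmpr1b are shown because both genes fell and both hold the core of the CTCF binding motif there. The core searched was CC, any 3 bases, AG, any 2 bases and GGC, on both strands, and capitals mark the matches. The Fzd9 stretch is the 30 bases around the match (GRCm38.p6, chr5:135251104-135251133, minus strand, 5′ to 3′), which GENCODE M21 places in the 5′ UTR of this gene, since its model starts further upstream than that of RefSeq. The Bmpr1b stretch (chr3:141931524-141931670, minus strand) precedes 1 of the 3 listed RefSeq starts, an internal one. It lies 237.8 kb inside the M21 gene and overlaps no M21 exon of Bmpr1b. The promoter of another listed start, chr3:141931539-141931838, overlaps the stretch, so part of the stretch follows that other start. The match shown lies before both starts.
Fzd9: cgtgggcggCCGAGAGATGGCgcgggagcc
Bmpr1b: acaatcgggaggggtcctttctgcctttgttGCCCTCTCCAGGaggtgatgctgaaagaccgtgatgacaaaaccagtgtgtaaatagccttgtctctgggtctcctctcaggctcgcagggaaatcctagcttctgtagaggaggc
The Fzd9 match began 77 bases before the RefSeq start. At Bmpr1b the match shown began 219 bases before the internal start named first. A further match 56 bases before that start, not printed, lay in an M21 UTR. RefSeq promoters, here 300 bases from 250 before to 50 after a start, were at hand for 57 of the 85 genes. The core was present in 12 of the 57 (21.1%), against 9.84% of the 27025 genes and 8.61% of the 32851 promoters in the table. It was in 3 of the 6 genes that fell and had a promoter (Fzd9, Bmpr1b and Lef1) and in 0 of the 4 that rose and had one. A match describes letters and not binding, and CTCF occupancy was not measured.

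Of the Sfrp and Dkk genes, grouped here by name as secreted Wnt inhibitors, 7 of 8 were tested, and 1 rose. Sfrp4, a Frizzled-like protein that binds Wnts outside the cell, stood at 33.80, 77.55, 57.98 and 165.22 normalized counts. Control 2 was above Ctcf-null 1, but both pairs rose, and the log2 fold change was 1.01 ± 0.21 (SE, edgeR adjusted p = 0.0014). Sfrp1, the most abundant inhibitor per kilobase (395, 490, 384 and 450 normalized counts per kilobase), had a log2 fold change of -0.03 ± 0.08 (edgeR adjusted p = 0.88), with a sign that differed between scalings. Sfrp2, Dkk1, Dkk2, Dkk3 and Dkk4 lay between -0.14 and 0.25 and did not pass.

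Rspo3, the R-spondin of the hem, fell from 177.89 and 1492.19 normalized counts in the controls to 142.84 and 794.54 (log2 fold change -0.63 ± 0.12, edgeR adjusted p = 7.0e-04). Groups overlapped, the second control being 8.39-fold above the first. Rspo1 (28.46, 105.07, 36.77 and 61.96) and Rspo2 (64.04, 337.71, 76.37 and 323.16) did not pass. Lef1, a DNA-binding partner of β-catenin whose own transcription responds to Wnt, stood at 256.16, 457.79, 185.97 and 346.24. It was lower in both pairs (log2 fold change -0.38 ± 0.12, edgeR adjusted p = 0.038), with overlapping groups. The Lef1 span overlaps the genes Gm43352 and Gm42449, and whether they share reads was not tested. Axin2, a negative regulator that β-catenin induces, stood at 79.16, 127.58, 79.20 and 149.43 and did not pass (log2 fold change 0.17 ± 0.18, edgeR adjusted p = 0.61).

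**Figure D2:**
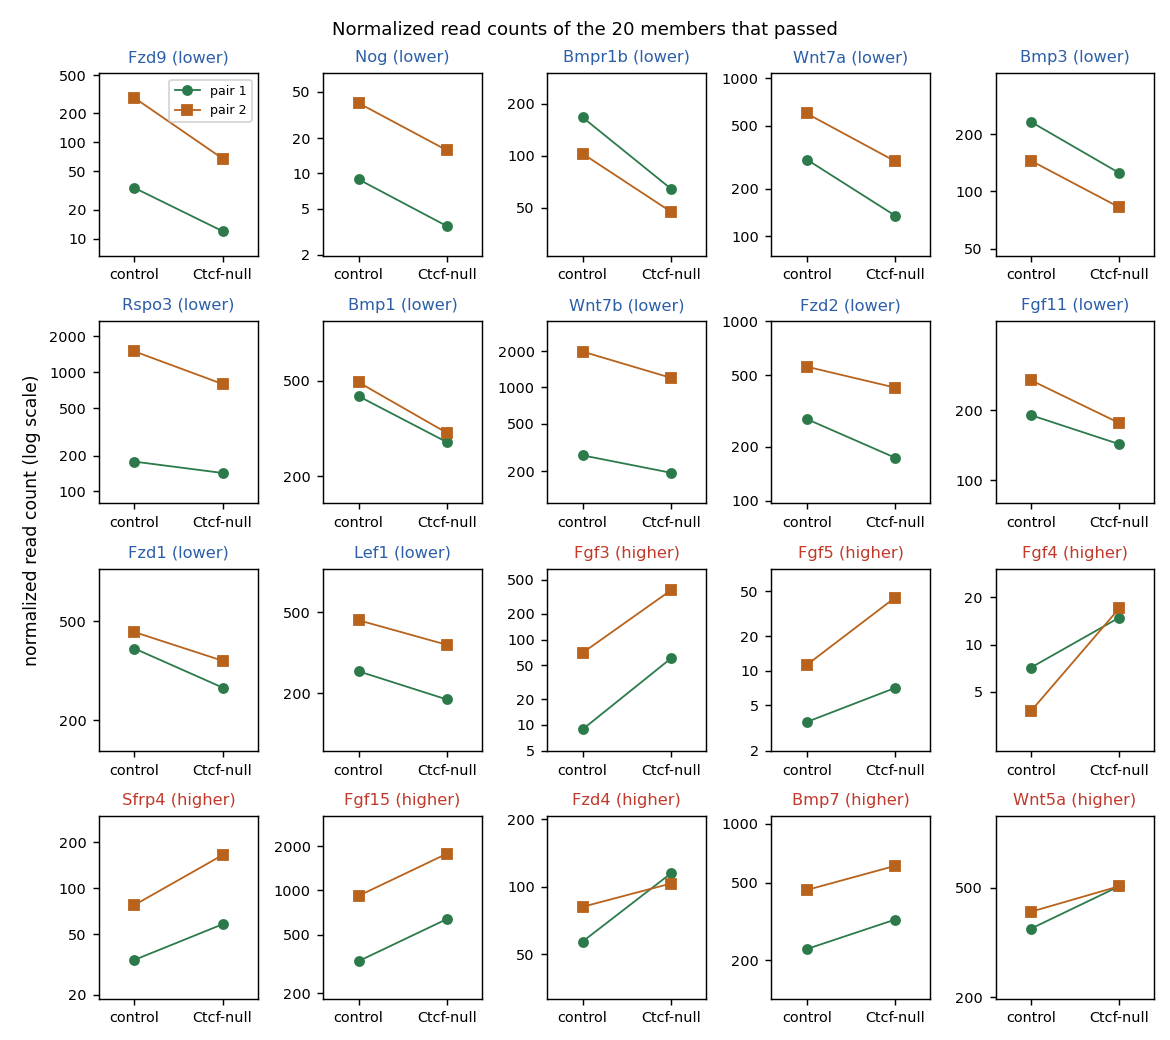
Normalized read counts (log scale, 1 panel per gene) of the 20 morphogen genes that passed; circles are pair 1 and squares pair 2, and a line joins the control and the Ctcf-null library of a pair. In all 20 panels both lines slope the same way, while the controls of the pairs differ by over 2-fold in 9 of them, as for Fzd9 (33.80 and 290.18).

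Of 12 tested Bmp genes 4 fell and 1 rose. Bmp7, per kilobase the most abundant Bmp ligand and a product of dorsal midline and meninges, stood at 227.70, 457.79, 322.44 and 608.66 normalized counts. It was higher in both pairs by 0.50 and 0.41 on the log2(count + 1) scale, with overlapping groups (log2 fold change 0.51 ± 0.11, edgeR adjusted p = 0.0027). Bmp3 differs from its relatives in opposing the signal of other Bmps. It stood at 232.14, 145.09, 125.16 and 82.61, without overlap (log2 fold change -0.80 ± 0.16, edgeR adjusted p = 6.9e-04). Bmp1 bears the family name but is a metalloprotease that trims procollagen and cleaves Chordin. Its 431.38 and 492.81 counts in the controls fell to 277.89 and 303.72 (log2 fold change -0.61 ± 0.11, edgeR adjusted p = 4.4e-04), again without overlap. Bmp2, Bmp4, Bmp5 and Bmp6 lay between 0.04 and 0.38 and did not pass; Bmp4, a hem ligand, stood at 35.58, 107.57, 48.79 and 104.48.

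Of the 3 Bmp receptors, the type I receptor gene Bmpr1b fell from 166.33 and 102.56 normalized counts to 64.35 and 47.38. Both Ctcf-null libraries were below both controls (log2 fold change -1.22 ± 0.19, edgeR adjusted p = 5.7e-05), with differences of -1.36 and -1.10 in the pairs. The related type I receptor gene Bmpr1a stood at 555.90, 434.02, 556.49 and 421.57 and did not pass (log2 fold change 0.04 ± 0.11, edgeR adjusted p = 0.88). The type II receptor gene Bmpr2 stood just outside the threshold, at 1053.99, 666.67, 1174.50 and 779.96 (log2 fold change 0.24 ± 0.09, edgeR adjusted p = 0.079). Nog, which encodes Noggin, rested on few reads, with 8.89, 40.03, 3.54 and 15.79 normalized counts. It was lower in both pairs (log2 fold change -1.27 ± 0.42, edgeR adjusted p = 0.046), with overlapping groups. Chrd, which encodes Chordin, stood at 43.58, 82.55, 40.31 and 68.03 and did not pass.

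Fgf genes held the largest increases. Of 16 tested genes named Fgf, 4 rose and 1 fell, and the median log2 fold change was 0.17. Fgf3, a ligand of the rostral forebrain, hindbrain and inner ear in the embryo, stood at 8.89, 70.04, 60.10 and 377.83 normalized counts, or 10, 56, 85 and 311 reads. Ctcf-null 1 lay between the controls and Ctcf-null 2 above all other libraries, and within pairs the differences were 2.63 and 2.41 on the log2(count + 1) scale. The fitted change was 5.86-fold (log2 fold change 2.55 ± 0.21, edgeR adjusted p = 1.2e-09). Fgf15, made by forebrain progenitors, where it is known to favour neuronal differentiation, stood at 330.87, 919.33, 638.52 and 1774.95. Each pair differed by 0.95 on that scale, with overlapping groups (log2 fold change 1.00 ± 0.09, edgeR adjusted p = 1.1e-08). Fgf4, best known from the early embryo and the limb bud, was close to the limit of detection, at 7.12, 3.75, 14.85 and 17.01 normalized counts or 8, 3, 21 and 14 reads. The groups did not overlap (log2 fold change 1.50 ± 0.49, edgeR adjusted p = 0.045).

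Fgf5 is a regulator of the hair cycle that is also expressed in the epiblast. It rose from 3.56 and 11.26 normalized counts to 7.07 and 43.74, with overlap (log2 fold change 1.72 ± 0.45, edgeR adjusted p = 0.011). The call rested on few reads (4, 9, 10 and 36). Within pairs the differences were 0.82 and 1.87 on the log2(count + 1) scale. Fgf11, 1 of the intracellular members, fell from 190.34 and 268.92 to 142.84 and 176.16, without overlap (log2 fold change -0.45 ± 0.14, edgeR adjusted p = 0.033). The other 3 intracellular members, Fgf12, Fgf13 and Fgf14, had log2 fold changes of 0.03, 0.12 and 0.14 and did not pass. Fgf13 was the most abundant Fgf gene per kilobase (236, 716, 272 and 686 normalized counts per kilobase). Among the rostral patterning ligands, Fgf17 stood at 12.45, 157.60, 19.09 and 223.54 and missed the threshold (log2 fold change 0.57 ± 0.21, edgeR adjusted p = 0.076). Fgf8 had 3, 10, 0 and 12 reads, and Fgf18 a log2 fold change of -0.29. The receptor genes Fgfr1 (1040.65, 1375.86, 1081.17 and 1343.66) and Fgfr2 (724.01, 575.36, 692.96 and 550.34) did not pass, with log2 fold changes of 0.07 ± 0.08 and -0.01 ± 0.10.

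Fgf3, Fgf4 and Fgf15 are neighbours on chromosome 7 (mm10, plus strand). In the GENCODE M21 annotation Fgf3 spans 144838083 to 144844436, Fgf4 144847367 to 144865243 and Fgf15 144896531 to 144900953, so the gaps are 2.9 kb and 31.3 kb. Within 700 kb on either side of Fgf3, 17 genes were tested, and the 3 that passed were these Fgf genes. Their other neighbours did not pass: the log2 fold change was 0.12 for Ccnd1, a cyclin gene, -0.17 for Oraov1, -0.09 for Ano1 and -0.05 for Fadd. Fgf15 overlaps the opposite-strand genes Gm26793 and Gm45180, neither of which passed.

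**Figure D3:**
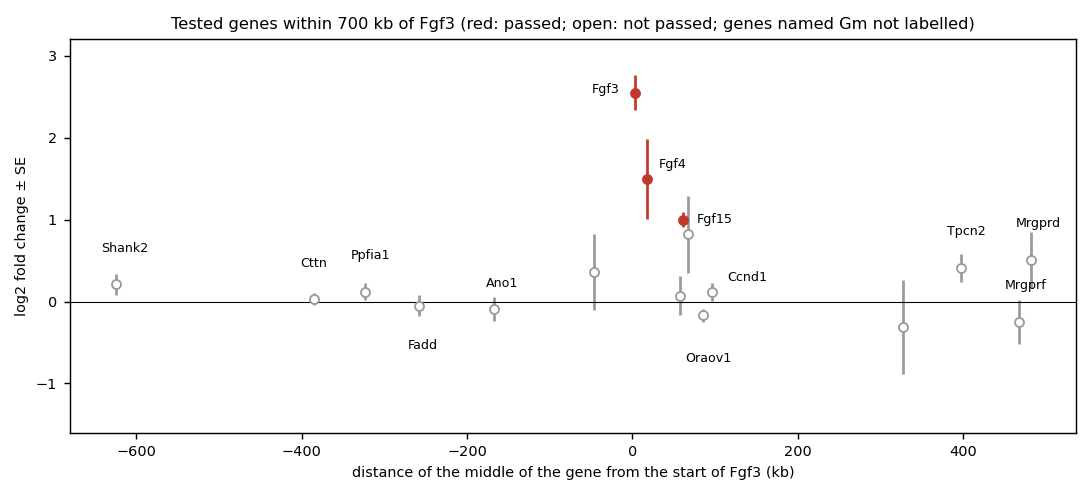
Log2 fold change, Ctcf-null over control, of tested genes within 700 kb of Fgf3 on chromosome 7, against the distance of each gene's centre from the Fgf3 start in kb; bars are 1 SE on each side. Fgf3 (2.55), Fgf4 (1.50) and Fgf15 (1.00) stand above the 14 other tested genes of the window, none of which passed.

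Sequences before the RefSeq starts of Fgf3 and Fgf4 are shown for this locus (GRCm38.p6, plus strand, 5′ to 3′): Fgf3 at chr7:144838362-144838594 and Fgf4 at chr7:144861136-144861385. Both lie inside the longer M21 gene models, 0.3 kb and 13.8 kb from their 5′ ends, and overlap no M21 exon of these genes. The 250 bases before each start were searched for the CTCF core, for the TCF/LEF motif (CTTTGAA or CTTTGAT, either strand) and for the GLI motif (TGGGTGGTC, either strand), and capitals mark matches.
Fgf3: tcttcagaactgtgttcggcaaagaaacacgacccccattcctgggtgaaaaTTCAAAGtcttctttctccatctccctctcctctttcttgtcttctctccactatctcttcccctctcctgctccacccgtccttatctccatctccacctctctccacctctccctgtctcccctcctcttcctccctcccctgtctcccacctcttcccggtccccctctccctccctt
Fgf4: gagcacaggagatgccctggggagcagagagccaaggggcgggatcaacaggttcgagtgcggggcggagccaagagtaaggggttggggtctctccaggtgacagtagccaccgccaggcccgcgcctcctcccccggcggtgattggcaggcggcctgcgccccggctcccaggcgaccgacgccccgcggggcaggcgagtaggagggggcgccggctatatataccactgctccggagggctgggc
Fgf3 held 1 match, of the TCF/LEF motif, 198 bases before the start, and Fgf4 held none. In the 300-base promoters that motif occurred in 6 of the 57 genes with a promoter (10.5%), against 9.88% of all genes in the table. The GLI motif was in 0 of the 57 and in 0.289% of all genes.

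In all, 13 pairs among the 85 genes lay within 1 Mb of each other, and in 4 of them both genes passed. Besides the 3 pairs within the Fgf3 cluster, these were Fgf5 and Bmp3 on chromosome 5, 577.4 kb apart, which went in opposite directions (log2 fold changes 1.72 and -0.80). Of the 9 genes tested within 700 kb of Bmp3, 2 rose (Fgf5 and 1700007G11Rik, which lies between them) and 3 fell (Bmp3, Prdm8 and A930011G23Rik). This window was viewed because Fgf5 and Bmp3 had passed, so both are in these counts by choice. Among all tested genes 11.9% passed. Bmp1 and Fgf17 on chromosome 14, 116.0 kb apart, had log2 fold changes of -0.61 and 0.57, of which only the first passed. The Wnt6 and Wnt10a pair and the Wnt3a and Wnt9a pair, 6.2 kb and 16.2 kb apart, held no gene that passed.

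None of the 4 tested hedgehog genes among the 85 passed in edgeR with the pair as a term. Without the pair no tested gene of any kind passed, so that fit says nothing particular about them. In DESeq2 with the pair, Ptch1, Smo and Gli2 did not pass, and Gli1 had no adjusted p. Shh itself, not tested, had 3, 9, 5 and 5 reads. Its receptor gene Ptch1, also a transcriptional target, stood at 506.09, 397.75, 497.80 and 443.43 normalized counts (log2 fold change 0.11 ± 0.11, edgeR adjusted p = 0.58). The transducer Smo stood at 310.42, 464.04, 263.04 and 408.20, the target Gli1 at 10.67, 35.02, 15.56 and 30.37, and Gli2 at 253.49, 242.65, 224.15 and 268.49. Their log2 fold changes were -0.16, 0.15 and 0.03, and in each of the 4 genes the groups overlapped.

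**Figure D4:**
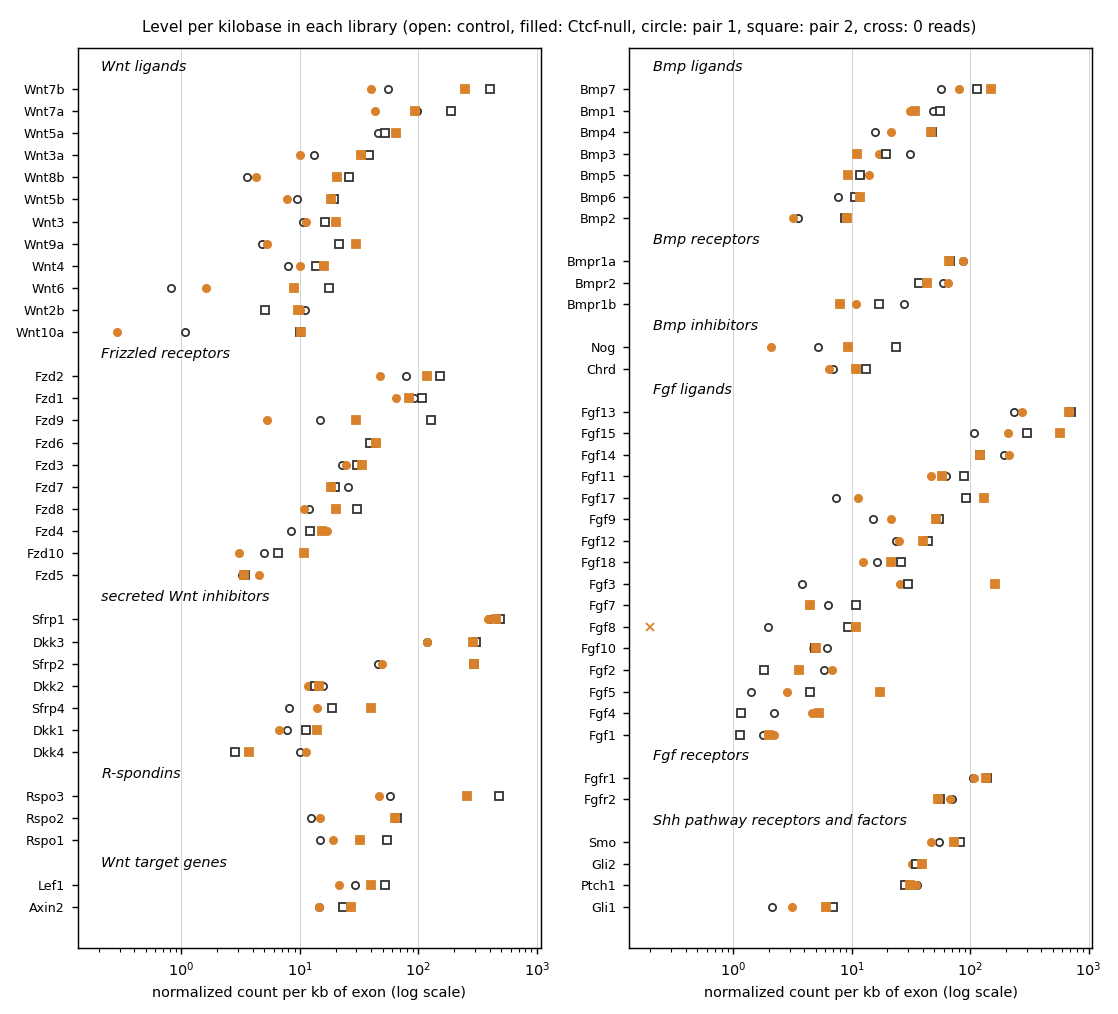
Normalized counts per kilobase of exon (log scale) of the 68 tested morphogen genes by role, in each of the 4 libraries; open marks are controls, filled marks Ctcf-null, circles pair 1 and squares pair 2, and a cross marks 0 reads (Fgf8 in Ctcf-null 1). Fgf13 is the highest Fgf gene (236 to 716), and several genes differ widely between the pairs, such as Rspo3 (57.6 and 483 in the controls).

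Levels differed more between pairs than between genotypes. The median absolute log2 difference over the tested morphogen genes was 0.863 between pairs and 0.32 between genotypes. Between the controls 30 of 68 (44.1%) differed by over 2-fold, against 44.2% of all tested genes, and 27 of the 30 were higher in control 2. The ratio of control 2 to control 1 was 21.8 for Wnt6, 12.7 for Fgf17, 8.59 for Fzd9, 8.39 for Rspo3, 7.88 for Fgf3 and 7.28 for Wnt7b. All 20 genes that passed had the same sign in both pairs, as did 24 of the 48 that did not pass. A test within pairs favours such genes, so this is no separate support for the calls. Of all genes that passed, 2618 of 2643 (99.1%) had the same sign in both pairs.

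**Figure D5:**
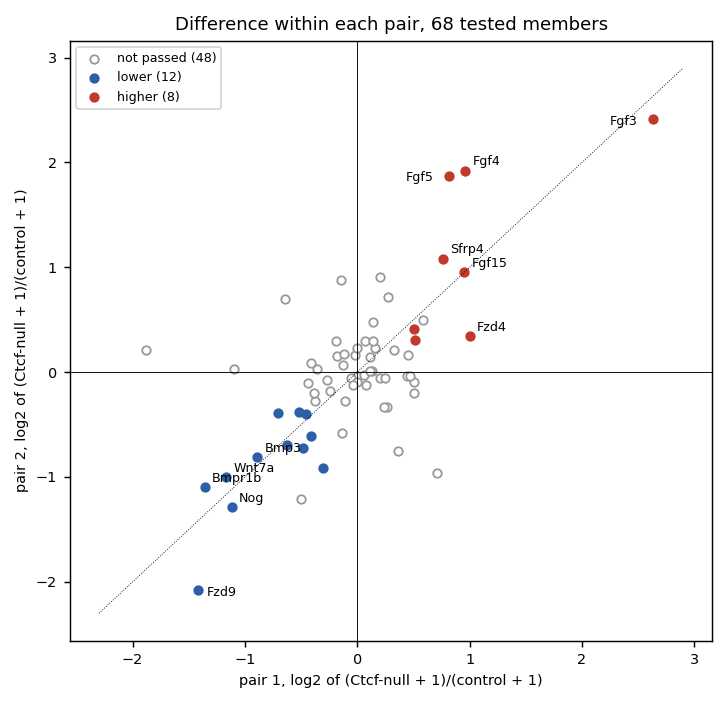
Log2 of (Ctcf-null + 1)/(control + 1) in pair 2 against the same in pair 1 for the 68 tested morphogen genes. The 20 that passed, coloured red (rose) or blue (fell), lie at the upper right and the lower left, with Fgf3 at 2.63 and 2.41 and Fzd9 at -1.42 and -2.08; open grey points did not pass, and the dotted line marks equal differences.

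The remaining 17 of the 85 genes had at most 15 reads in any library and were not tested. Besides the 7 Wnt ligands and Shh they were Bmp10, Bmp15, Fgf6, Fgf16, Fgf20, Fgf21, Fgf22, Fgf23 and Sfrp5. None was at 0 in all 4 libraries. At this depth no difference in them was assessed.

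Other genes of the same pathways were taken from lists of 97 genes: 6 of 87 tested rose and 7 fell, 14.9% in all against 11.9% of all tested genes. Of 32 tested Wnt genes, Nkd1 and Nkd2, feedback inhibitors induced by Wnt, fell (172.55, 874.30, 112.43 and 598.94 for Nkd1, and 139.64, 400.25, 100.41 and 211.39 for Nkd2). Their log2 fold changes were -0.52 ± 0.12 and -0.67 ± 0.15 (edgeR adjusted p = 0.0029 and 0.0024). The R-spondin receptor gene Lgr6 (1.01 ± 0.30, edgeR adjusted p = 0.026) and the β-catenin partner Tcf7l2 (0.29 ± 0.09, edgeR adjusted p = 0.038) rose. The other Wnt genes with the largest log2 fold changes, Kremen2 (1.12), Lgr5 (0.73) and Rnf43 (-0.68), did not pass.

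Of 23 tested Bmp genes, the extracellular Bmp modulators Chrdl1 and Bmper rose and the Bmp-induced factors Id2 and Id4 fell. Chrdl1, a Chordin-like Bmp antagonist, stood at 27.57, 48.78, 146.37 and 189.52 normalized counts, with both Ctcf-null libraries above both controls (log2 fold change 2.23 ± 0.20, edgeR adjusted p = 1.1e-08). Bmper went from 651.07 and 499.06 to 1043.69 and 918.45 (0.83 ± 0.10, edgeR adjusted p = 6.1e-07), likewise without overlap. Id2 went from 15975.27 and 13503.49 to 9640.69 and 9024.17 (-0.60 ± 0.07, edgeR adjusted p = 3.6e-07), and Id4 had a log2 fold change of -0.36 ± 0.11 (edgeR adjusted p = 0.029). The related genes Id1 (0.04 ± 0.12) and Id3 (0.01 ± 0.08) did not pass, nor did Msx1 (-0.10), Smad6 (0.19) and Bambi (-0.41). The fall of Id2 and Id4 was thus not shared by all listed Id genes.

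Among 19 tested Fgf genes, Flrt3, a membrane protein that binds Fgf receptors and guides migrating neurons, fell from 4577.07 and 2769.24 to 1904.95 and 1318.15 (log2 fold change -1.12 ± 0.08, edgeR adjusted p = 3.3e-11). The receptor gene Fgfr3 fell from 1423.11 and 1627.27 to 844.99 and 1176.01 (-0.56 ± 0.09, edgeR adjusted p = 4.8e-05), and the Fgf-induced factor Etv1 fell (-0.30 ± 0.09, edgeR adjusted p = 0.036). The inhibitor Spred1 rose (0.46 ± 0.11, edgeR adjusted p = 0.0051), and Fgfr4 (0.65), Spry1 (0.42) and Etv4 (-0.35) did not pass. Of 13 tested hedgehog genes, Disp2 rose (0.39 ± 0.10, edgeR adjusted p = 0.013). Nkx2-1, a transcription factor of the ventral telencephalon, had the largest fitted change of these 13 (-0.86 ± 0.30, edgeR adjusted p = 0.065) but went opposite ways in the pairs, by 0.54 and -1.77. Kif7 (0.36), Hhat (0.27), Hhip (-0.23) and Sufu (-0.14) did not pass either. The median log2 fold change of the 4 lists lay between -0.01 and 0.00.

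Markers of the cells that make or receive these signals also differed, and in bulk tissue fewer cells of a type and less RNA per cell cannot be told apart. Of 6 genes listed as cortical hem markers, 2 rose and 1 fell. Rspo3 fell, and Ttr, shared with the choroid plexus, rose. Lmx1b, the other that rose, went from 0.00 and 1.25 normalized counts in the controls to 37.48 and 68.03. The controls held the listed hem gene Lmx1a at 243.71 and 146.34. Which cells the reads of Lmx1a and Lmx1b came from was not tested. Lmx1a, Msx1 and Wnt3a did not pass. Of 12 choroid plexus markers 2 rose (Ttr and Otx2), and the log2 fold changes of all 12 lay between 0.11 and 0.95 (median 0.35). Summed counts were 73758, 25489, 96547 and 36696, of which Ttr alone gave 72063, 23920, 94452 and 34808. Of 12 markers of meninges and mesenchyme, a source of Bmp7, 2 rose (Pdgfra and Ogn), with sums of 4811, 9335, 4979 and 9999. Among telencephalic markers, Dlx2, Emx1 and Lhx2 fell (log2 fold changes -1.21, -0.65 and -0.60) and Pax6 rose (0.26). Of 7 interneuron markers 6 fell, with sums of 6145, 20293, 3458 and 8544. Of 8 endothelial markers 1 fell (Esam), with sums of 2851, 6034, 2352 and 5349. Of 7 blood, 8 microglial, 4 tested diencephalic and 6 tested septal markers, 0, 2, 1 and 0 rose and 0, 0, 1 and 0 fell. The log2 fold changes of all 8 microglial markers lay between 0.23 and 0.50, and those of the 7 blood markers between -0.39 and -0.00. No listed marker was at 0 in all libraries, and the part of these markers in the changes of the morphogen genes was not tested.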

How the data were processed

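The submitters' processing notes name the aligner STAR 2.5.3, the genome build mm10 and DESeq2. The sources used here do not name the program that counted reads per gene or its annotation. The cDNA was made with a Clontech SMART kit, per the labels' protocols, and no strand or molecular identifier is named. Per the file headers, the authors' values are normalized read counts, a signal not divided by gene length, beside the authors' log2 fold changes per pair, which were not used for any result. Dividing each library by the value of 1 read returned whole reads for 99.972% to 99.997% of nonzero values (tolerance 0.005 on the deposited value), and the count test was run on these reads. It was edgeR 4.0.16 (R 4.3.3) with TMM factors, filterByExpr and pair as a term (residual degrees of freedom 1, prior degrees of freedom 23.6), two-sided. Each SE is approximate, |log2 fold change|/√F. The script was tested on simulated data.

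The replicate numbers were taken to pair the libraries because the series text describes pairs and the authors' table has a fold for each; after subtracting group means, same-numbered libraries correlated at 0.923. Alternatives were DESeq2 1.42.0, limma 3.58.1 on log2(value + 1) and log2(value + 5), other scalings and filters, no block and each library left out. Gene positions and exon lengths are from GENCODE M21 (85 of 85 genes matched), and promoters from RefSeq.

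The members, lists and tests were chosen with earlier results of these data known. Named were all members that passed; members that did not pass with a log2 fold change of 1 or more in size (there were 0); the most abundant member of each role; Shh; and, of the listed pathway genes, those that passed and the 3 largest changes each way per pathway. Some listed genes are not reported here. Other genes named, such as members near the threshold and neighbours of a member, were chosen after their values were seen.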

Additional observations from a re-analysis of the deposited data

How the results depend on the processing

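Of the 20 morphogen genes that passed with the replicate block in edgeR, 19 passed with the authors' size factors (not Fgf4), 17 with limma on log2(value + 1) (not Fgf4, Fgf5 and Nog), 20 with limma on log2(value + 5), 18 without a count filter (not Fgf4 and Lef1) and 17 with upper-quartile factors (not Fgf11, Lef1 and Nog; Bmpr2 and Fgf17 passed there in addition). A stricter filter on counts kept 16 of them in the test (not Fgf4, Fgf5, Fzd9 and Nog), and all 16 passed. Bmpr2 passed there in addition. In DESeq2 with the block, 2 morphogen genes rose and 6 fell, 289 of all genes rose and 543 fell, and 2 of the listed pathway genes rose and 3 fell. Without the replicate block, in edgeR and in limma, 0 of all genes, 0 morphogen genes and 0 listed pathway genes rose, and 0 of each fell. Leaving out 1 library leaves 1 complete pair, and a fit with the block would then have no residual degree of freedom. These fits therefore had no block and assume that the lone library varies like the other group. In them 0 to 4 of all genes rose and 0 to 4 fell, and 0 morphogen genes passed in either direction.

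The share of increases among all calls was 40.2%, against 26.1% with the authors' size factors (848 rose and 2399 fell), 26.7% with limma on log2(value + 1) and 27.2% on log2(value + 5), and 56.0% with upper-quartile factors (1358 rose and 1069 fell). The sign of Sfrp1 turned to 0.03 with upper-quartile factors and 0.01 with the stricter filter. The cause of these differences was not tested. With 2 pairs and 1 residual degree of freedom, the calls rest on a spread shared across genes.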
